A study of Homo sapiens with 4 samples.

Results

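The genes described here are 10 genes of the PDGF and VEGF growth factor system, namely the ligands PDGFA, PDGFB, PDGFC, PDGFD, VEGFA, VEGFB and VEGFC and the receptors PDGFRA, PDGFRB and KDR. They were found by symbol, all 10 had a row among the 36359 genes of the count table, and 9 of them had enough reads to be tested. The cells were ACHN, an established human renal cell carcinoma (RCC) line kept in MEM with fetal bovine serum and antibiotics and transfected with a Lipofectamine reagent. Control cells received the non-targeting siRNA (siNC, 2 libraries) and the other cells received an siRNA against PRR11 (siPRR11, 2 libraries), a proline-rich protein studied here for its role in RCC. The 2 groups thus share the cell line, the medium and the transfection reagent, and they differ in the siRNA. The time between transfection and harvest was not given in the labels, and the labels do not tie a library to a particular siRNA duplex.

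PDGF and VEGF ligands are secreted dimers that bind receptor tyrosine kinases at the cell surface, and the bound receptor passes its signal on to PI3K and AKT, to phospholipase C gamma and to Ras. PDGF-AA and PDGF-CC act mainly through the alpha receptor (PDGFRA), PDGF-DD through the beta receptor (PDGFRB) and PDGF-BB through both, whereas VEGFA acts on endothelial cells mainly through KDR, also called VEGFR2. In RCC, VEGFA secreted by the tumor cells is best known for the growth of vessels, and inhibitors of VEGF and PDGF receptors are in clinical use. Whether PRR11 silencing moved the transcripts of these ligands and receptors in the tumor cells is the question this comparison addresses.

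The siNC libraries held 83068637 and 59003839 reads counted on genes, against 92612749 and 84279389 in the siPRR11 libraries. PRR11 itself, at chr17:59155499-59204705 on the plus strand, was at 41.3 and 40.4 CPM in siNC and at 15.3 and 14.02 CPM in siPRR11, where CPM are read counts scaled to library size with TMM normalization, so that 35.9% of its transcript remained (log2 fold change -1.48, SE 0.0909, adjusted p = 3.35e-06 by edgeR's quasi-likelihood test). Of the renal and RCC markers PAX8, PAX2, CDH6, CA12, KRT8, KRT18, KRT19 and VIM, 6 of 8 reached 1 RPKM (reads per kilobase of exon, scaled to the reads of the library) in every library, while CA12 was low and CDH6 was near 0. All 8 endothelial markers with a row (PECAM1, CDH5, TEK, TIE1, VWF, CLDN5, ERG and ROBO4) were under 0.1 RPKM in every library, and the leukocyte markers PTPRC and CD14 were near 0 beside an expressed CD68.

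To show the DNA in front of members that stood far apart in expression, the stretch before the start of transcription is printed for PDGFRB, the receptor with the largest change, for PDGFA, a ligand that fell, and for KDR, the receptor with almost no reads. The sequences are those of RefSeq on GRCh38.p14, cut so that they lie before both the RefSeq start and the start of the gene in the count table, and they run 5′ to 3′ on the strand of the gene. RefSeq windows were matched for 7 of the 10 genes, and those of VEGFA, PDGFB and PDGFC were not matched. Capitals mark the letters GGGCGG of a GC box or the letters CCAAT of a CCAAT box, and the letters TATAAA of a TATA box and the letters ACGTG of the core of a hypoxia response element were searched as well. Each motif was searched on both strands, and matches were allowed to overlap.
PDGFRB, chr5:150155873-150156095, minus strand: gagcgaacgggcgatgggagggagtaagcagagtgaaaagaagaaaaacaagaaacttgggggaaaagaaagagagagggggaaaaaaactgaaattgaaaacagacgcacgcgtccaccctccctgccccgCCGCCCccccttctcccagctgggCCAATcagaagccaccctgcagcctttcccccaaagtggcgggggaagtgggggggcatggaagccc
PDGFA, chr7:520297-520476, minus strand: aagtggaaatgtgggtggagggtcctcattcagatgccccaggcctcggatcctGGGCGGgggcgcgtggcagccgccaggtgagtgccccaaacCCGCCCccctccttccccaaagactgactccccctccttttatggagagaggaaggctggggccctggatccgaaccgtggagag
KDR, chr4:55125596-55125845, minus strand: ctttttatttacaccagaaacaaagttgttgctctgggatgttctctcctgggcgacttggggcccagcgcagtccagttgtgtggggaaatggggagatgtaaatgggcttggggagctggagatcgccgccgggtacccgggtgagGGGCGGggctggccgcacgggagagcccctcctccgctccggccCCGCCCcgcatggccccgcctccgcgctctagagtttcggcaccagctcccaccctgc

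The PDGFRB stretch of 223 bases held 1 GC box and 1 CCAAT box at a GC content of 58.3%, whereas the PDGFA stretch of 180 bases held 2 GC boxes at 65%, and the KDR stretch of 250 bases held 2 GC boxes at 65.2%. Over the full windows of 250 bases before the RefSeq start, PDGFRB alone of the 7 genes held a CCAAT box, none of the 7 held these letters of a TATA box or of the hypoxia core, and GC boxes numbered from 0 in PDGFRA to 6 in VEGFB. Among 34788 different windows of that length, 42.6% held a GC box, 32% a CCAAT box, 10.8% a TATA box and 18.5% the hypoxia core, with a median GC content of 58%. GC content in the 7 windows ran from 46.8% in PDGFRA to 82.8% in VEGFB. These matches describe letters only, and the data hold no measurement of binding to them.

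After PRR11 silencing, PDGFRB and VEGFA were higher in siPRR11, PDGFA, PDGFB and PDGFC were lower, and PDGFD, PDGFRA, VEGFB and VEGFC did not pass the threshold of an adjusted p-value of 0.05. Of the 9 genes tested, 5 passed (55.6%), where 16.7% of all 21630 genes tested did. These genes, and the lists read further on, were chosen with earlier results of these data known. The 21630 genes also include many with few reads and are not matched to the members for expression. The shares are thus given as description, with no conclusion drawn from their difference. The 2 higher genes stand beside 7.61% of all genes that were called higher and the 3 lower ones beside 9.14% that were called lower. In 8 of the 9, siNC and siPRR11 libraries did not overlap, as was so for 58.4% of all genes tested. The median log2 fold change of the 9 was -0.35, beside 0.00 over all genes, with 4 positive and 5 negative values.

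**Figure D1:**
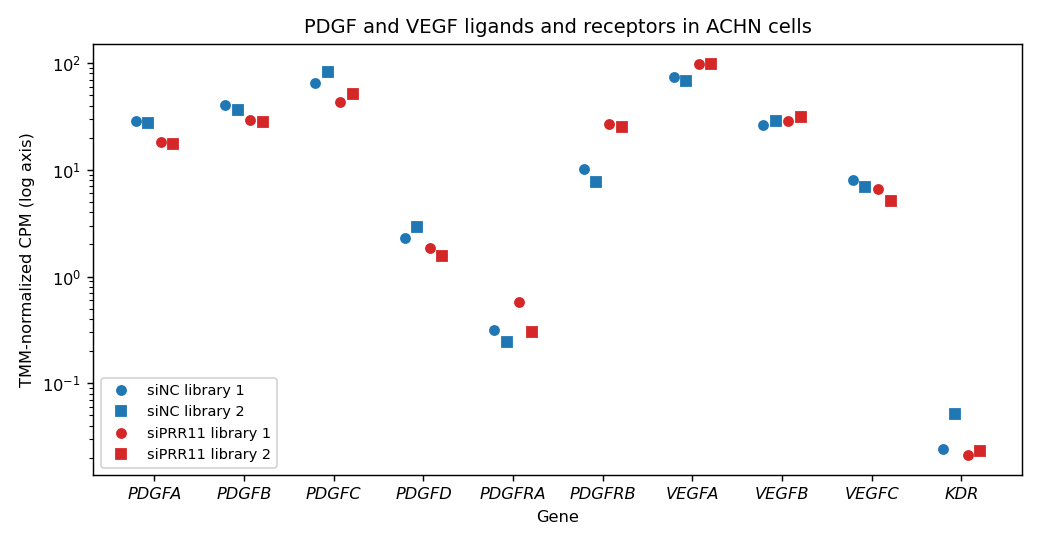
TMM-normalized CPM (log axis) of the 10 genes in each library, with siNC in blue and siPRR11 in red and replicates 1 and 2 as circles and squares. PDGFRB rises from 10.2 and 7.62 CPM to 27.0 and 25.05 CPM, the PDGF ligands lie lower in siPRR11, and KDR stays near 0.02 to 0.05 CPM.

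Among the receptors, PDGFRB (chr5:150113837-150155872, minus strand) showed the largest change of the 10 genes. It was at 10.2 and 7.62 CPM in siNC and at 27.0 and 25.05 CPM in siPRR11, that is 834 and 442 reads against 2549 and 2142. Both siPRR11 libraries lay above both siNC libraries, and the gap between the groups was wider than that between libraries of a group. The mean rose from 8.91 ± 1.83 to 26.0 ± 1.41 CPM (SD, n = 2), a 2.91-fold rise (log2 fold change 1.54, SE 0.129, 95% interval 1.26 to 1.82, adjusted p = 2.33e-05 by edgeR's quasi-likelihood test). None of its exonic bases was shared with another gene of the table. PDGFRB is among the genes of the PI3K-Akt pathway that the study picked from these same libraries, so its rise is no independent evidence for that list.

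PDGFRA (chr4:54229097-54298247, plus strand), the alpha receptor, was at a level where single reads count. It was at 0.318 and 0.241 CPM in siNC and at 0.573 and 0.304 CPM in siPRR11, from 26, 14, 54 and 26 reads. The higher siNC library lay above the lower siPRR11 library, so the groups overlapped. The log2 fold change was 0.64 (SE 0.447, 95% interval -0.34 to 1.61, adjusted p = 0.377 by edgeR's quasi-likelihood test). This interval is wide and holds 0, so the sign of any change was not settled. Leaving out a library moved the log2 fold change between 0.11 (without siPRR11 replicate 1) and 1.01 (without siPRR11 replicate 2), and with limma on the log2 of RPKM plus 1 it was 0.02. Another gene of the table, RP11-231C18.3, shares 15.8% of the exonic bases of PDGFRA on the same strand.

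KDR (chr4:55078477-55125589, minus strand), the main VEGFA receptor of endothelium, was represented by 2 and 3 reads in the siNC libraries and by 2 and 2 reads in the siPRR11 libraries. The exact Poisson interval (95%, counting error only) was 0.242 to 7.22 for 2 reads and 0.619 to 8.77 for 3 reads. It was left out of the test for low counts, and no fold change is given. Libraries with 59003839 to 92612749 reads on genes thus held almost no KDR transcript in either group.

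The 3 PDGF ligands with the most reads were all lower after PRR11 silencing. PDGFA (chr7:497258-520296, minus strand), the A chain, was at 28.7 and 27.2 CPM in siNC and at 18.3 and 17.6 CPM in siPRR11. The siPRR11 libraries lay close together and both below the siNC libraries. PDGFA fell to 64.3% of control (log2 fold change -0.64, SE 0.0903, 95% interval -0.83 to -0.44, adjusted p = 0.000747 by edgeR's quasi-likelihood test).

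PDGFC (chr4:156760454-156971394, minus strand), a chain that is secreted with a CUB domain which must be cut off before it binds its receptor, was at 64.5 and 82.1 CPM in siNC and at 43.4 and 51.5 CPM in siPRR11. Its libraries spread more within a group than those of PDGFA, and both siPRR11 libraries still lay below both siNC libraries. PDGFC fell to 64.7% of control (log2 fold change -0.63, SE 0.116, 95% interval -0.88 to -0.37, adjusted p = 0.00358 by edgeR's quasi-likelihood test). With limma on the log2 of RPKM plus 1 or plus 0.1 the adjusted p was 0.0728 and 0.0624, so the call was lost there.

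PDGFB (chr22:39223359-39244751, minus strand), the B chain and the classical ligand of PDGFRB, was at 40.0 and 36.6 CPM in siNC and at 29.2 and 27.8 CPM in siPRR11. Again the groups did not overlap. It fell to 74.4% of control (log2 fold change -0.43, SE 0.0876, 95% interval -0.62 to -0.24, adjusted p = 0.0064 by edgeR's quasi-likelihood test). The call was lost without siPRR11 replicate 2 (log2 fold change -0.39, adjusted p = 0.0558 by edgeR's quasi-likelihood test) and with limma on the log2 of RPKM plus 1 (adjusted p = 0.0509).

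PDGFD (chr11:103907186-104164379, minus strand), the other CUB-domain ligand and one that acts through PDGFRB, had few reads, with 2.28 and 2.88 CPM in siNC and 1.85 and 1.54 CPM in siPRR11 from 186, 167, 174 and 132 reads. The siPRR11 values lay below the siNC values without overlap. The fold change was close to those of PDGFA and PDGFC, with a wider interval (log2 fold change -0.60, SE 0.201, 95% interval -1.03 to -0.16), and the adjusted p of 0.0638 by edgeR's quasi-likelihood test missed the threshold. It passed with edgeR's exact test (adjusted p = 0.0323) and with no filter on low counts (adjusted p = 0.0216). It did not pass with DESeq2 (adjusted p = 0.101) or with limma on the log2 of RPKM plus 1 or plus 0.1 (adjusted p = 0.15 and 0.185). With a library left out, the log2 fold change ran from -0.77 (without siNC replicate 1) to -0.43 (without siNC replicate 2).

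**Figure D2:**
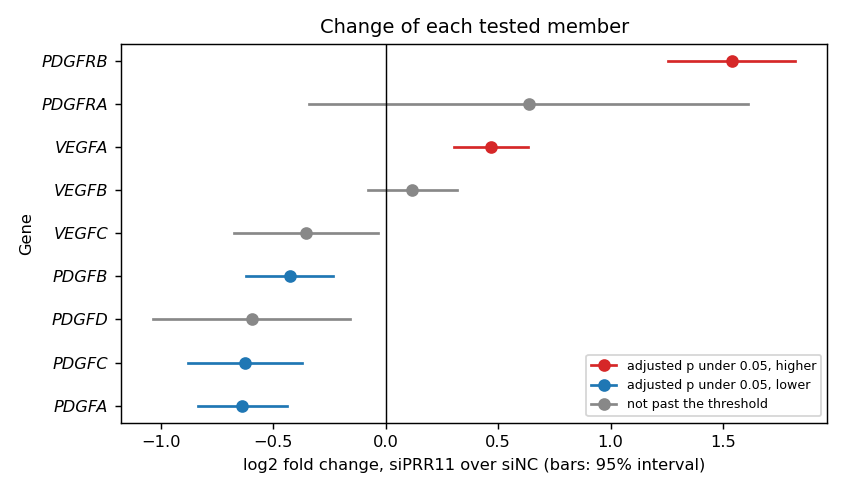
Log2 fold change of siPRR11 over siNC for the 9 genes tested, with points for the estimate and bars for its 95% interval from edgeR's quasi-likelihood test. PDGFRB stands at 1.54 and VEGFA at 0.47 in red, PDGFB, PDGFC and PDGFA between -0.43 and -0.64 in blue, and the intervals of VEGFB and PDGFRA cross 0.

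Among the VEGF ligands, VEGFA rose and the others did not pass the threshold. VEGFA (chr6:43770184-43786487, plus strand), the main angiogenic factor of the family, was at 73.6 and 68.4 CPM in siNC and at 98.8 and 97.7 CPM in siPRR11. The siPRR11 libraries were nearly equal and both above the siNC libraries. The mean went from 71.0 ± 3.67 to 98.3 ± 0.767 CPM (SD, n = 2), a 1.38-fold rise (log2 fold change 0.47, SE 0.0760, 95% interval 0.30 to 0.63, adjusted p = 0.00168 by edgeR's quasi-likelihood test). Of its exonic bases, 1.3% lie opposite the gene RP1-261G23.7 on the other strand, and whether strand was used in counting is not given in the sources used here.

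VEGFB (chr11:64234538-64238793, plus strand), which binds VEGFR1 and not KDR, was at 26.6 and 28.5 CPM in siNC and at 28.5 and 31.3 CPM in siPRR11. The groups touched without overlapping, and the log2 fold change was 0.12 (SE 0.0911, 95% interval -0.08 to 0.32, adjusted p = 0.421 by edgeR's quasi-likelihood test). VEGFC (chr4:176683538-176792727, minus strand), the lymphangiogenic ligand of VEGFR3, was at 8.03 and 6.97 CPM in siNC and at 6.61 and 5.14 CPM in siPRR11. All siPRR11 values lay below the siNC values, with a log2 fold change of -0.35 (SE 0.146, 95% interval -0.67 to -0.03) and an adjusted p of 0.127 by edgeR's quasi-likelihood test. Its value depended on the library left out, from -0.18 without siPRR11 replicate 2 to -0.54 without siPRR11 replicate 1, and it passed without siNC replicate 2 (log2 fold change -0.45, adjusted p = 0.035 by edgeR's quasi-likelihood test).

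Levels of different genes were compared per length, on the RPKM scale of the authors. RPKM are scaled to the column total, without the TMM factors used for CPM (0.984 and 0.983 in siNC, 1.018 and 1.015 in siPRR11). Values of siPRR11 relative to siNC thus stand slightly higher in RPKM than in CPM. In siNC cells the order of the mean levels was VEGFB (17.5 RPKM), PDGFC (12.9), PDGFB (10.0), PDGFA (6.62), VEGFA (4.84), VEGFC (3.05), PDGFRB (1.23), PDGFD (0.594), PDGFRA (0.0283) and KDR (0.00599). No neighbours in this order overlapped between their 2 libraries. In siPRR11 cells VEGFA, at 6.92 RPKM, stood above PDGFA, at 4.40, and PDGFRB, at 3.71, stood above VEGFC, at 2.47, whereas PDGFC (8.62) and PDGFB (7.70) were no longer separated by their libraries. Every ligand but PDGFD stood above the 3 receptors in siNC, and in siPRR11 both VEGFC and PDGFD stood below PDGFRB.

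The place of VEGFA in this order depends on the length used. The count table gives it 14431 exonic bases, the union of all its listed transcripts, whereas its canonical transcript in GENCODE release 44 has 3609 bases. For no other gene of the 10 did the lengths differ by more than 1.53 times (PDGFRA). Per base of canonical transcript, VEGFA ranked first of the 10 in both groups, with 19.4 in siNC and 27.7 in siPRR11 on the same scale. PDGFC (15.8 and 10.6) and VEGFB (14.997 and 16.8) came after it. Reads on all listed exons stayed in these values, also those outside the canonical transcript. The VEGFA values are thus upper bounds, and its first place is not settled. For VEGFB the canonical transcript, at 1805 bases, is longer than the 1545 exonic bases of the count table. Its reads are thus divided by bases on which none were counted, and its values on this scale may be too low. In siNC the libraries of PDGFC and VEGFB overlapped on this scale, and so did those of PDGFB (10.1) and PDGFA (10.02). Fold changes between the groups are not touched by this choice, since the length of a gene is the same in each library.

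**Figure D3:**
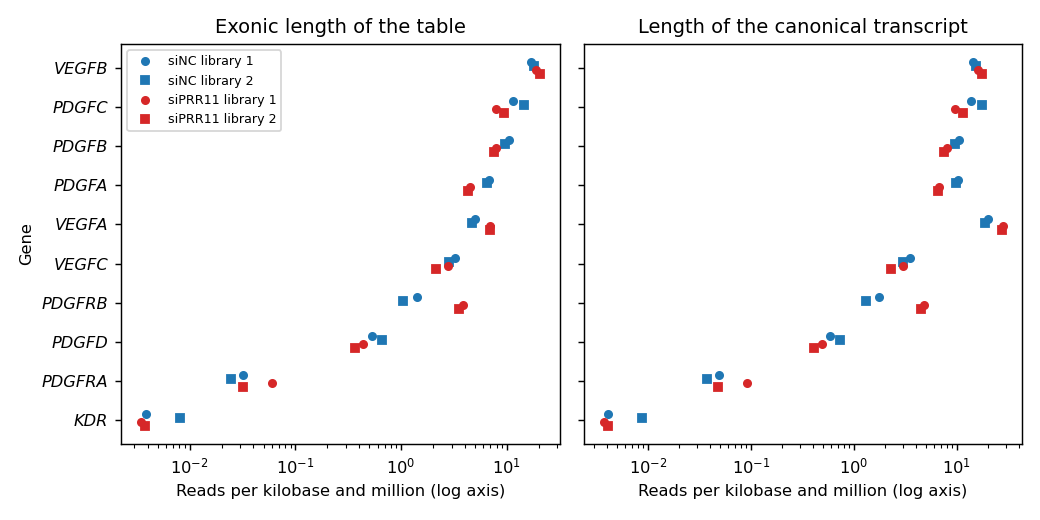
Reads per kilobase, scaled to the library (log axis), of the 10 genes in each library, by the exonic length of the count table (left) and by the canonical transcript of GENCODE release 44 (right), with siNC in blue, siPRR11 in red and genes in the order of the left panel in siNC. VEGFA moves from 4.84 to 19.4 in siNC between the panels, and the other genes move by at most 1.53 times.

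Summed over the 4 PDGF ligands, the siNC libraries held 29.1 and 31.1 RPKM and the siPRR11 libraries 20.7 and 21.5 RPKM. The siPRR11 sum was thus 70.1% of control, and both libraries lay below both controls. The makeup of the sum moved little: PDGFA took 23.3% and 20.7% of it in siNC against 21.7% and 20.02% in siPRR11, and PDGFB took 35.9% and 30.7% against 38.1% and 34.9%. For PDGFC it was 39.0% and 46.4% against 38.1% and 43.4%, and PDGFD stayed between 1.71% and 2.13%. For each of the 4 the shares of the 2 groups overlapped.

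The VEGF ligands together were at 25.2 and 25.6 RPKM in siNC and at 28.5 and 29.6 RPKM in siPRR11, which is 114% of control. Without TMM scaling, part of this small rise comes from the scale. Within this sum VEGFA went from 19.9% and 18.2% to 24.4% and 23.3%, VEGFC from 13.0% and 11.04% to 9.74% and 7.30%, and VEGFB stayed the largest part with 67.1%, 70.8%, 65.8% and 69.4% in the 4 libraries. The groups did not overlap for VEGFA and VEGFC and overlapped for VEGFB. With canonical lengths VEGFA was the largest part instead, with 52.8% and 50.1% in siNC and 59.4% and 58.0% in siPRR11. Reads outside its canonical transcript are included there, so the level of VEGFA behind these shares is an upper bound. The level of VEGFB behind them may be too low. On those lengths the VEGF sum was 125% of control, while that of the PDGF ligands was 69.6%. With 2 libraries against 2, an exact permutation test cannot reach the threshold, so sums and shares are given as values.

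**Figure D4:**
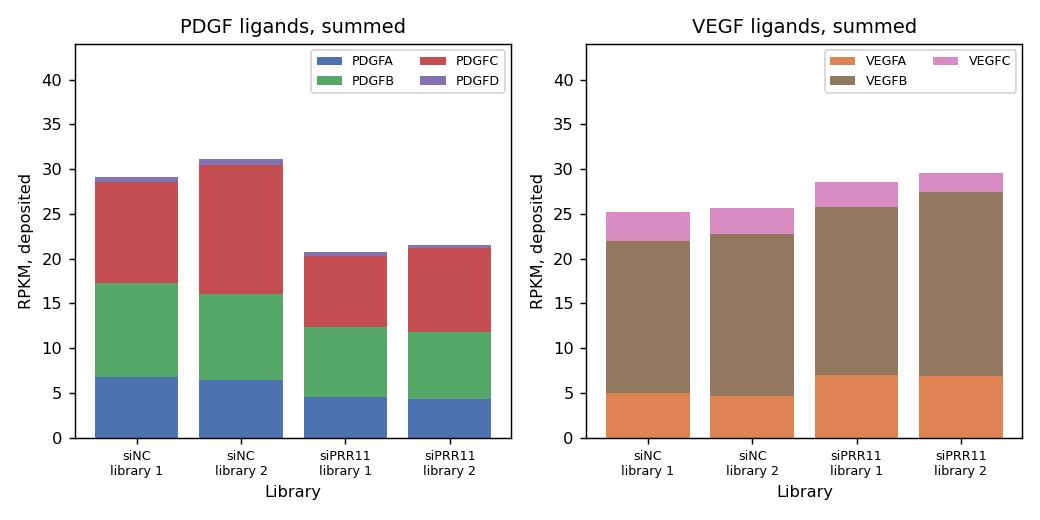
Deposited RPKM of the PDGF ligands (left) and the VEGF ligands (right), stacked by gene for each library. The PDGF columns are lower in siPRR11 (20.7 and 21.5 against 29.1 and 31.1) and the VEGF columns are slightly higher (28.5 and 29.6 against 25.2 and 25.6).

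The rest of the family, made up of further ligands, receptors and co-receptors, held 10 genes of which 7 were tested. By edgeR's quasi-likelihood test 1 was called lower and 0 higher (median log2 fold change 0.10). That is 14.3% called, near the 16.7% of all genes tested. NRP1 and PGF were higher at an unadjusted p under 0.05, and of the higher genes DESeq2 called 1, edgeR's exact test 2 and both limma fits (log2 of RPKM plus 1 and plus 0.1, in this order throughout) 0. NRP2, the co-receptor that binds VEGFC and VEGFA, was that gene, with 90.7 and 95.7 CPM in siNC and 44.9 and 37.0 CPM in siPRR11. Both siPRR11 libraries lay far below the siNC libraries (log2 fold change -1.18, SE 0.0960, adjusted p = 1.78e-05 by edgeR's quasi-likelihood test). Its paralog NRP1, the co-receptor of VEGFA and KDR, was at 96.5 and 85.8 CPM in siNC and at 124 and 100.3 CPM in siPRR11, with a log2 fold change of 0.30 (SE 0.103, adjusted p = 0.0664 by edgeR's quasi-likelihood test). The placental growth factor PGF, a ligand of VEGFR1, had 2.36 and 1.41 CPM against 2.86 and 3.01 CPM and a log2 fold change of 0.61 (adjusted p = 0.0821 by edgeR's quasi-likelihood test). Both depended on single libraries: NRP1 was at 0.14 without siPRR11 replicate 1 and passed without siPRR11 replicate 2 (0.45, adjusted p = 0.00507 by edgeR's quasi-likelihood test) or siNC replicate 1 (0.39, adjusted p = 0.00279), and PGF was at 0.31 without siNC replicate 2 and passed without siNC replicate 1 (1.05, adjusted p = 0.000952).

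The VEGF receptors FLT1 (VEGFR1) and FLT4 (VEGFR3) were both under 0.4 CPM in every library, with log2 fold changes of -0.69 (adjusted p = 0.378 by edgeR's quasi-likelihood test) and 1.10 (adjusted p = 0.273). FLT4 was at 3.04 and passed without siNC replicate 1 (adjusted p = 0.0247 by edgeR's quasi-likelihood test), and it was at 0.42 without siNC replicate 2. FLT3, a related receptor kinase, was at -0.51 on the log2 scale (adjusted p = 0.236), and the value of PDGFRL, a receptor-like protein without a kinase, was 0.10 (adjusted p = 0.833). VEGFD and the related receptors KIT and CSF1R had too few reads for the test. FLT1, FLT4 and KDR were thus at levels of few reads in these cells, while both neuropilins were among the well expressed genes.

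Genes that process the ligands (proteases and the VEGFC cofactor CCBE1) numbered 8, all tested, with 2 higher and 2 lower. Thus 50% were called, beside 16.7% of all genes tested, and the median log2 fold change was 0.04. CCBE1, which brings ADAMTS3 to VEGFC, fell from 99.2 ± 3.67 to 60.3 ± 0.232 CPM (SD, n = 2, log2 fold change -0.72, adjusted p = 0.000114 by edgeR's quasi-likelihood test). ADAMTS3, the protease that cuts VEGFC, rose from 298 ± 47.1 to 386 ± 25.9 CPM (log2 fold change 0.37, adjusted p = 0.0242 by edgeR's quasi-likelihood test). FURIN, the convertase that cuts the precursors of several PDGF and VEGF chains, fell from 14.2 ± 0.397 to 9.84 ± 0.196 CPM (log2 fold change -0.53, adjusted p = 0.00435 by edgeR's quasi-likelihood test). The other higher gene was ADAMTS14, at low expression. The call of ADAMTS3 was lost without siNC replicate 1 (log2 fold change 0.22, adjusted p = 0.0602 by edgeR's quasi-likelihood test), without siPRR11 replicate 2 (adjusted p = 0.0627) and in both limma fits (adjusted p = 0.0892 and 0.079), and that of FURIN in both limma fits (adjusted p = 0.0596 and 0.0511).

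Of 28 genes that carry the signal from these receptors, 27 were tested, and 9 were lower and 2 higher. That is 40.7% called, beside 16.7% of all genes tested, with a median log2 fold change of -0.12. The largest of these changes among genes whose log2 CPM averaged 1 or more were falls: PIK3CD, a catalytic subunit of PI3K, by 0.74 on the log2 scale (adjusted p = 0.000877 by edgeR's quasi-likelihood test), the Src-family kinase gene FYN by 0.61 (adjusted p = 0.017), the Ras gene NRAS by 0.55 (adjusted p = 0.00105) and PLCG2, a phospholipase C gamma, by 0.47 (adjusted p = 0.00865). NRAS went from 48.7 ± 2.32 to 33.2 ± 1.05 CPM and PIK3CD from 14.7 ± 0.146 to 8.77 ± 0.734 CPM (SD, n = 2). The call of FYN was lost without siPRR11 replicate 1 (adjusted p = 0.0715 by edgeR's quasi-likelihood test), without siPRR11 replicate 2 (adjusted p = 0.071) and in both limma fits (adjusted p = 0.0891 and 0.133). That of PLCG2 was lost without siPRR11 replicate 1 (adjusted p = 0.0706) and in both limma fits (adjusted p = 0.133 and 0.15). The 2 higher genes were SHB (log2 fold change 0.43, adjusted p = 0.00232 by edgeR's quasi-likelihood test) and SHC1 (0.36, adjusted p = 0.0118). Called genes of the list thus stood beside a higher PDGFRB with mostly lower values, and these are transcript levels with no measure of the signal itself.

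Among 13 phosphatases, ubiquitin ligases and other regulators that mostly restrain these receptors, 2 were higher and 2 lower. The called share was 30.8%, beside 16.7% of all genes tested, and the median log2 fold change was -0.30. PTPN1, which dephosphorylates receptor kinases including those for PDGF, rose from 127 ± 2.30 to 173 ± 6.14 CPM (log2 fold change 0.44, adjusted p = 0.00168 by edgeR's quasi-likelihood test), and PTPRJ, which acts on PDGFRB and KDR, rose by 0.36 on the log2 scale (adjusted p = 0.00751). PTPN2 fell by 0.35 on the log2 scale (adjusted p = 0.0293 by edgeR's quasi-likelihood test) and RASA1, which turns off Ras and binds PDGFRB, by 0.34 (adjusted p = 0.0457). By the same test, PTPN2 lost its call without siNC replicate 2 (log2 fold change -0.23, adjusted p = 0.11), siPRR11 replicate 1 (adjusted p = 0.18) or siPRR11 replicate 2 (adjusted p = 0.051), RASA1 without siNC replicate 2 (log2 fold change -0.18, adjusted p = 0.174) or siPRR11 replicate 1 (adjusted p = 0.243), and PTPRJ without siPRR11 replicate 2 (adjusted p = 0.0617). In both limma fits PTPN2 (adjusted p = 0.161 and 0.147) and RASA1 (adjusted p = 0.208 and 0.195) were not called.

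For VEGFA, 12 regulators of its transcription and message stability were examined, and edgeR's quasi-likelihood test called 3 lower and 0 higher. This makes 25% called, beside 16.7% of all genes tested, with a median log2 fold change of -0.05. At an unadjusted p under 0.05, 2 were higher (ELAVL1 and EPAS1), and DESeq2, edgeR's exact test and both limma fits called 0 higher. HIF1A, the oxygen-sensitive factor that binds the VEGFA gene, went from 404 ± 5.03 to 318 ± 23.2 CPM (log2 fold change -0.35, adjusted p = 0.00875 by edgeR's quasi-likelihood test), and its partner ARNT from 81.5 ± 0.0770 to 61.3 ± 0.442 CPM (log2 fold change -0.41, adjusted p = 0.00297). ZFP36L1, whose protein binds AU-rich messages such as that of VEGFA and speeds their decay, fell from 174 ± 4.55 to 111 ± 6.11 CPM (log2 fold change -0.65, adjusted p = 0.000222 by edgeR's quasi-likelihood test). The call of HIF1A was lost without siPRR11 replicate 2 (log2 fold change -0.27, adjusted p = 0.114 by edgeR's quasi-likelihood test) and in both limma fits (adjusted p = 0.0635 and 0.0594).

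Of 12 other genes known to be induced by hypoxia-inducible factors, 11 were tested, and 2 were higher and 1 lower. The share called was 27.3%, beside 16.7% of all genes tested, and the median log2 fold change was -0.01. The vasodilator peptide gene ADM had 1.24 and 0.897 CPM in siNC and 3.10 and 2.57 CPM in siPRR11 (log2 fold change 1.39, adjusted p = 0.00137 by edgeR's quasi-likelihood test). SLC2A1, the glucose transporter GLUT1, rose with a log2 fold change of 0.48 (adjusted p = 0.00106 by edgeR's quasi-likelihood test), close in size to that of VEGFA, whereas the glycolytic gene ENO1 fell by 0.27 (adjusted p = 0.0227), a call that was lost without siPRR11 replicate 1 (adjusted p = 0.195) and in both limma fits (adjusted p = 0.138 and 0.141). VEGFA was thus higher while ARNT and ZFP36L1 were lower and EPAS1 was not called. HIF1A was called lower as well, in most but not all of the fits. The part of these genes in the rise of VEGFA was not tested.

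**Figure D5:**
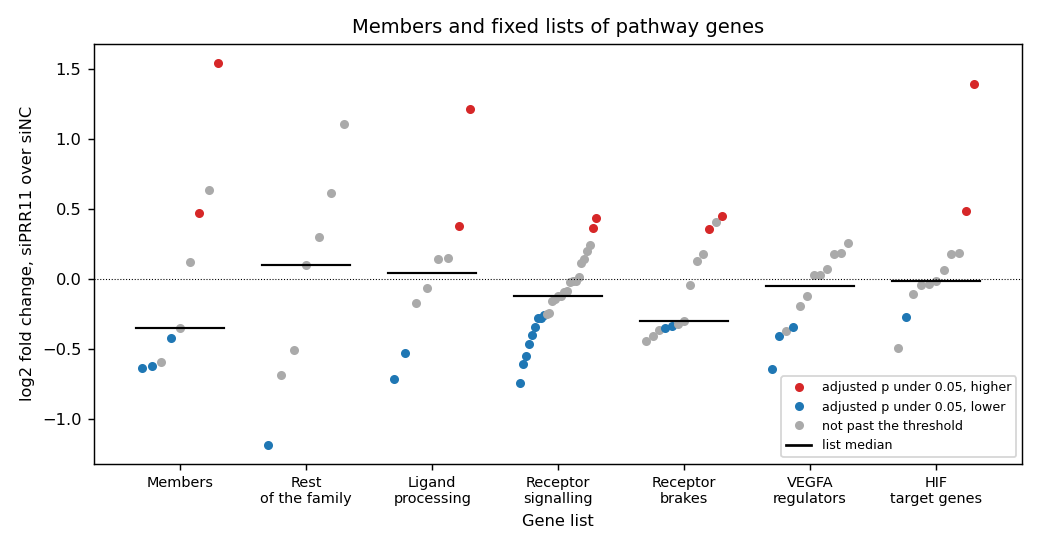
Log2 fold change of siPRR11 over siNC for each tested gene of the 10 members and of 6 lists of pathway genes, with red and blue for genes called higher and lower by edgeR's quasi-likelihood test, grey for the others and a black line at each list's median. The receptor signalling genes show 9 blue and 2 red points around a median of -0.12, and NRP2 at -1.18 is the lowest point of the rest of the family.

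Around PDGFRB on chromosome 5, 20 other genes of the table lay within 500 kb and 15 of them were tested. By edgeR's quasi-likelihood test 0 were called higher (1 at an unadjusted p under 0.05, CD74), and 4 were lower, namely TCOF1, a gene for ribosome biogenesis (log2 fold change -0.88, SE 0.0823, adjusted p = 4.98e-05 by edgeR's quasi-likelihood test), ARSI (-0.66), the sulfate transporter gene SLC26A2 (-0.48) and NDST1, an enzyme of heparan sulfate synthesis (-0.38). The call of NDST1 was lost without siPRR11 replicate 1 (adjusted p = 0.0643 by edgeR's quasi-likelihood test) and in both limma fits (adjusted p = 0.111 and 0.101), as was that of SLC26A2 in both limma fits (adjusted p = 0.0859 and 0.0731) and that of ARSI with limma on the log2 of RPKM plus 1 (adjusted p = 0.0547). No tested neighbour was called in the direction of PDGFRB, where 7.61% of all genes tested were called higher and 9.14% lower. Among 15 genes a count of 0 higher is near the share over all genes. Around the cluster of PDGFRA, KIT and KDR on chromosome 4, 18 other genes lay within 500 kb and 8 of them were tested. Of these, 0 were called in either direction (1 at an unadjusted p under 0.05, CLOCK), beside 16.7% of all genes tested. With 8 genes, a count of 0 is near that share. DESeq2, edgeR's exact test and both limma fits also called 0 near the cluster and 0 higher near PDGFRB.

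The genes with the profile most like that of PDGFRB over the 4 libraries, by Euclidean distance of centred log2 CPM among 14192 genes, were OGFR (distance 0.172), DNAH10OS, CHST14, MAMDC2-AS1 and STX12 (distance 0.298). Their log2 fold changes ran from 1.30 (MAMDC2-AS1) to 1.53 (DNAH10OS), beside 1.54 for PDGFRB. With 2 libraries in a group this likeness is mostly that of the size of the change, and it is given as a description.

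PDGFRB is a known marker of mural cells and fibroblasts, so other markers of these cells were read beside it. Of 13 such markers, 5 reached 1 RPKM in every library and 5 were under 0.1 RPKM in every library, and the fibroblast genes DCN and LUM were near 0, with at most 4 reads in a library. RGS5, a pericyte gene, was at 12.3 and 11.2 CPM in siNC and at 26.9 and 22.4 CPM in siPRR11 (log2 fold change 1.07, adjusted p = 0.00012 by edgeR's quasi-likelihood test), and COL1A1 (0.90) and DES (1.64) were also called higher. DES was low, with 0.563 and 0.483 CPM in siNC and 1.68 and 1.61 CPM in siPRR11. MCAM was called lower, from 146 and 118 CPM to 78.6 and 61.7 CPM (log2 fold change -0.91, adjusted p = 0.000495 by edgeR's quasi-likelihood test). The other tested markers were not called. Their log2 fold changes were 0.05 for ACTA2, -0.13 for CSPG4, 0.18 for TAGLN and -0.001 for THY1. COL1A2 (-0.23) and COL3A1 (0.36) had few reads. The summed level of the 13, which is mostly THY1, was 658 to 724 CPM in siNC and 665 to 702 CPM in siPRR11.

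The summed level of the endothelial markers was very low, with 0.648 and 0.328 CPM in siNC and a higher 1.36 and 1.36 CPM in siPRR11. Much of this rise was TIE1, with means of 0.113 CPM in siNC and 0.629 CPM in siPRR11. It was called higher from 17 and 1 reads to 58 and 55 reads (log2 fold change 2.33, adjusted p = 0.0191 by edgeR's quasi-likelihood test). By the same test TEK (adjusted p = 0.204) and VWF (adjusted p = 0.323) were not called, and CDH5 and ERG were at 0 reads in siNC. The value of TIE1 was 5.06 without siNC replicate 1 and 1.59 without siNC replicate 2, and both limma fits lost the call (adjusted p = 0.0977 and 0.061). In these bulk libraries, a change in the share of some cells and a change of the RNA in each cell cannot be told apart. The part of these marker changes in the rise of PDGFRB was not tested. No label says that the 2 libraries of a group came from separate cultures, so the p-values measure the spread between these libraries, which may be technical.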

How the data were processed

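RNA-seq of ACHN cells comprised 2 siNC and 2 siPRR11 libraries, grouped by the sample labels. Per the methods of the study and the labels, the authors prepared stranded libraries, sequenced them on a DNBSEQ-T7 instrument, trimmed reads with Trimmomatic 0.36, used STAR to align the trimmed reads to GRCh38, and obtained gene counts from featureCounts (Subread 1.5.1). Neither the annotation release nor whether strand entered the counting is given in the sources used here. The authors deposited raw counts per gene and RPKM, and the RPKM match counts divided by exonic length and column total to within 3.08e-06%. RPKM, their sums and the limma fits on them thus carry no TMM scaling.

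Counts were tested with edgeR 4.0.16 (quasi-likelihood, TMM, filterByExpr, condition only, R 4.3.3) over 21630 genes, with Benjamini-Hochberg adjustment and a threshold of 0.05. Libraries held 59003839 to 92612749 counts. For genes with many reads, the spread between libraries (biological coefficient of variation 0.0856) and not counting error thus set the precision. Counting error weighs more in genes with few reads, among them PDGFD and PDGFRA. Alternatives were RLE, DESeq2 1.42.0, edgeR's exact test, other filters on low counts, the replicate number as a term, limma 3.58.1 on log2(RPKM + 1) or log2(RPKM + 0.1), and each library left out. Canonical lengths from GENCODE 44 were added after the lengths in the table had been seen.

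The genes and lists were chosen with earlier results of these data known. Named genes are PRR11, the 10 ligands and receptors, the rest of their family, from each other list up to 4 called genes with the largest changes and an average log2 CPM of at least 1, called genes within 500 kb of PDGFRB or PDGFRA, KIT and KDR, and the 5 nearest profiles. ADAMTS14, SHB, SHC1 and the markers with values were named after their values were seen. The result for 1 marker gene is not reported here.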

Additional observations from a re-analysis of the deposited data

How the results depend on the processing

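PDGFRB, VEGFA and PDGFA kept direction and call under all 12 alternatives. Of 108 recomputed fold changes of the 9 tested ligands and receptors, 98 kept their side of the threshold, 4 lost the call, 6 gained it and 0 reversed. Of 466 for 39 other named genes, 417 kept their side, 37 lost the call, 11 gained it and 1 reversed: PDGFRL, uncalled in each fit, ran from -0.20 (without siNC replicate 2) to 0.52 with a library left out. The cause of these changes was not tested.

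Of the 3622 genes called, 45.4% were higher. Limma on log2(RPKM + 1) called 1775 (61.5% higher) and on log2(RPKM + 0.1) 1878 (61.3% higher), with 1625 and 1726 of them shared with the 3622. An unadjusted p under 0.05 gave 6553, and leaving out a library gave 2172 (without siPRR11 replicate 1) to 4590 (without siNC replicate 1), where the lone library of a group is assumed to vary like the others. Among the 10 ligands and receptors, limma on log2(RPKM + 1) called 3 and the left-out fits 4 to 6. With limma on log2(RPKM + 1) and log2(RPKM + 0.1), calls fell to 1 and 1 for ligand processing, 4 and 4 for receptor signalling and 2 and 2 for the regulators that restrain receptors. For the rest of the family DESeq2 gave 2, the exact test 3 and no filter 3. With a library left out, calls ran from 1 to 4 for the rest of the family, 3 to 4 for ligand processing, 5 to 12 for receptor signalling, 2 to 6 for the restraining regulators, 2 to 5 for VEGFA regulators and 2 to 5 for HIF targets.

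The replicate block (replicate number as a term) gave 6988 genes, 7 ligands and receptors (PDGFD, adjusted p = 0.00428, and VEGFC, adjusted p = 0.00543, were added), 3 for the rest of the family, 10 restraining regulators, 6 VEGFA regulators and 5 HIF targets, all by edgeR's quasi-likelihood test. Deviations of same-numbered libraries from their group means correlated at 0.49 over 14193 genes, but with 2 pairs and no label that ties them, the numbers are not known to pair the libraries. Depth limits PDGFRA and KDR.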
